A study of Homo sapiens with 12 samples.

Results

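Pairs of exons that the splicing software rMATS lists as mutually exclusive were examined in A549 cells, a human lung adenocarcinoma line. A member was any such event with at least 20 reads on its 2 forms together in each of the 6 libraries of a comparison, counted once for each set of coordinates. This rule kept 21825 of 23529 listed events, in 6061 genes and on 17493 distinct pairs of exons, because a pair can be listed with several sets of flanking exons. Between 13091 and 13535 events were members in each of the 4 comparisons, of 14456 to 15019 listed, and 5352 were members in all 4.

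The 12 libraries were of mRNA, 3 for each of 4 groups. All cells had been infected with a lentivirus carrying a short hairpin RNA and selected with puromycin at 1 µg/ml for 4 days. The hairpin was a control (shControl) or targeted RNF113A (shRNF113A), and the cells were left untreated or received Cisplatin, a DNA-crosslinking drug, at 25 µg/ml for 20 h. This dose is that of the sample labels, while the methods of the study give 25 µM for A549 cells in other assays. The methods of the study call the libraries of a group biological replicates, and neither they nor the labels say whether these came from separate infections, so the p-values measure only the spread between these libraries. The splicing tables list the 3 libraries of a group without names, and they are called a, b and c in table order.

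Mutually exclusive exons are neighbouring exons of which a transcript normally carries only a single one, so that the protein receives alternative versions of the same stretch. Classical pairs arose by duplication of an exon and encode similar peptides of equal length, as in pyruvate kinase, the tropomyosins and the dynamins. RNF113A is a RING and zinc finger protein that joins the spliceosome around its activation.

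The sequences of 6 pairs are shown because they are pairs of equal length that no annotated transcript joins, and because each passed the test in at least 1 comparison described further on. They were chosen after their values were seen. They were read from the GRCh37 genome on the strand of the gene, and capitals mark the bases that are equal at the same position of both exons of a pair. Among them are ATE1, which encodes arginyltransferase, PKM, which encodes pyruvate kinase, and U2AF1, which encodes the small subunit of the factor that recognises the 3′ splice site.
ATE1 first exon, chr10:123659381-123659509, minus strand: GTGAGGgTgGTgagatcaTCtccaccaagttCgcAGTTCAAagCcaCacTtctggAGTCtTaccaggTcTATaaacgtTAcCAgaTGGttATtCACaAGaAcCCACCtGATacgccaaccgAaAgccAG
ATE1 second exon, chr10:123658356-123658484, minus strand: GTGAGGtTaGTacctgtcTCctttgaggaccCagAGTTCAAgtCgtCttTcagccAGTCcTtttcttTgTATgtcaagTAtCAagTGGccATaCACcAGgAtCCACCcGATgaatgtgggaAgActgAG
PKM first exon, chr15:72495363-72495529, minus strand: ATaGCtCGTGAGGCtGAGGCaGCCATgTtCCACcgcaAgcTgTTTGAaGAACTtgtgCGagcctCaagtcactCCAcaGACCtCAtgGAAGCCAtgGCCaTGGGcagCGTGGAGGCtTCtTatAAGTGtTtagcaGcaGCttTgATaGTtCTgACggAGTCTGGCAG
PKM second exon, chr15:72494795-72494961, minus strand: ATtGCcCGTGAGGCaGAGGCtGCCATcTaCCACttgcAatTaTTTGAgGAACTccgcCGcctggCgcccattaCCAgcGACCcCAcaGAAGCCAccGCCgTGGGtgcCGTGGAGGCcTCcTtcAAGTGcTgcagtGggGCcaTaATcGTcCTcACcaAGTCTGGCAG
TPM2 first exon, chr9:35685061-35685136, minus strand: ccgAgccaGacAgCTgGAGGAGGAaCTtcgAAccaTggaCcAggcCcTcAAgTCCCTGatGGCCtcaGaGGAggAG
TPM2 second exon, chr9:35684729-35684804, minus strand: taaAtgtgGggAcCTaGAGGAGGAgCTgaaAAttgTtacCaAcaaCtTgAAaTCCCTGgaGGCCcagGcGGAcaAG
DNM2 first exon, chr19:10906737-10906875, plus strand: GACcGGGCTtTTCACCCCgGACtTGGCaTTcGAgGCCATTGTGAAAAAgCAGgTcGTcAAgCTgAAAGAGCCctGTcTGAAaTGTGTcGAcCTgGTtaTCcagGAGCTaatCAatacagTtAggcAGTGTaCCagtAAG
DNM2 second exon, chr19:10908056-10908194, plus strand: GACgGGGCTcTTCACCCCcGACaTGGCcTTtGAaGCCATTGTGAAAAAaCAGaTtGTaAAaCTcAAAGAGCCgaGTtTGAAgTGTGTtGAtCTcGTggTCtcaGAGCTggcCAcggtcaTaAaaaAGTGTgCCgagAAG
P4HA1 first exon, chr10:74804739-74804809, minus strand: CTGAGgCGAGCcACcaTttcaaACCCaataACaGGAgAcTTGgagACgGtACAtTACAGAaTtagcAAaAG
P4HA1 second exon, chr10:74803645-74803715, minus strand: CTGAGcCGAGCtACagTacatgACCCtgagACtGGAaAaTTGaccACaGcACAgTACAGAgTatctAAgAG
U2AF1 first exon, chr21:44521476-44521542, minus strand: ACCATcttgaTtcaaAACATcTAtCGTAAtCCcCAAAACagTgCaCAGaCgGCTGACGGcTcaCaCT
U2AF1 second exon, chr21:44520563-44520629, minus strand: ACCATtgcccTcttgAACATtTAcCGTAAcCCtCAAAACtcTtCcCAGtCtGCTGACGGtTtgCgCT
Equal bases made up 62.9% of the PKM exons, 69.8% of the DNM2 exons, 65.7% of the U2AF1 exons and 60.6% of the P4HA1 exons. The values were 52.6% for TPM2 and 45.0% for ATE1.

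The label of the category was checked against the gene annotation deposited with the series. This annotation holds only protein-coding genes with verified or manually annotated loci. Both exons were annotated in 19680 members, and 19278 of these (98.0%) had both exons together in at least 1 annotated transcript. For 402 members, 353 pairs in 280 genes, no annotated transcript joined the exons, and 313 of them had a transcript for each form. In 11 of the 402 the exons adjoin each other with no base between them. A transcript with both would carry these as a single exon, so they could not have counted as joined. The remaining 2145 members had an exon whose exact ends are not in this annotation. They include exons of non-coding genes such as GAS5 and SNHG1, so an unannotated exon here need not be an unknown one. In 21146 members (96.9%) both exons were also listed as cassette exons, which are exons that a transcript carries or skips. Most of these events are therefore not mutually exclusive exons in the annotation, and they are called listed pairs below, with the 402 named the never-joined pairs.

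Never-joined pairs differed from the joined pairs in their structure. Both exons had the same length in 34 of 402 never-joined members (8.46%), against 161 of 19278 joined members (0.835%). The difference in length was a multiple of 3, which keeps the reading frame, in 49.5% of the never-joined and 37.2% of the joined members. The gap between the exons had a median of 1659 nt and 2785.5 nt, and it was under 100 nt in 14.4% and 2.25%. Counted once for each pair, 31 never-joined pairs had exons of equal length, and a median of 63.9% of their positions held the same base, from 33.8% to 96.3%. The 135 joined pairs of equal length had a median of 29.9%, and 20 of them reached 50%, against 27 of the 31. These counts describe the annotation and were not tested, since events of a gene share exons.

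The measured quantity was the first-exon share, the percentage of reads of the form with the exon that is transcribed first, after each form's reads were divided by its length. A transcript with both exons adds reads to both forms, so a share near 50% does not show alternation in a joined pair. In untreated shControl cells the joined pairs had a median share of 48.4%, and 75.3% of them lay between 30% and 70%. Of the never-joined pairs, 31.3% lay in that range and 41.5% were under 10% or over 90%, against 9.25% of the joined pairs. Events with an unannotated exon had 35.6% and 40.4% in these ranges.

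**Figure D1:**
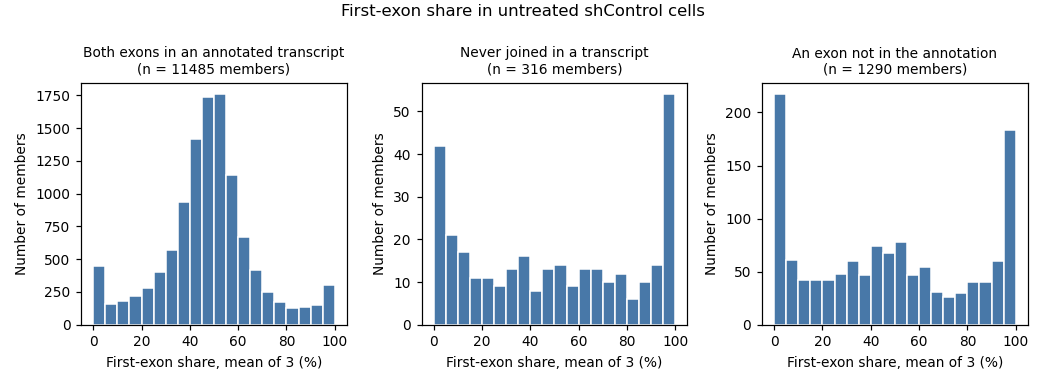
Number of members (vertical axis) by mean first-exon share of the 3 untreated shControl libraries in percent (horizontal axis, bins of 5 points), for 11485 joined pairs, 316 never-joined pairs and 1290 events with an unannotated exon of the comparison of Cisplatin in shControl cells. Joined pairs gather around 50%, and never-joined pairs gather at both ends of the scale.

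The libraries held 33859097 to 56071514 read pairs, of which 26220526 to 45721152 were counted on the strand of a gene. Gene levels are given in CPM, read pairs scaled to the assigned total of the library after adjustment of that total by the TMM method. RNF113A stood at 19.3 to 20.3 CPM in untreated shControl cells and at 15.3 to 16.9 CPM in untreated shRNF113A cells. The log2 fold change was −0.31 (SE 0.09, adjusted p = 0.0247 in edgeR's quasi-likelihood test). This call missed the threshold without shControl replicate 1 or 3 (log2 fold changes of −0.30 and −0.31) and without shRNF113A replicate 1 or 2 (−0.28 and −0.30). With Cisplatin the ranges were 27.9 to 31.7 and 24.3 to 29.5 CPM, which overlap (log2 fold change −0.14, SE 0.09, adjusted p = 0.233). The shRNF113A groups are therefore named by their hairpin, since a lower RNF113A mRNA level was not shown here for those with Cisplatin. These libraries do not measure the protein. The study followed it by western blot in A549 cells that it calls RNF113A-depleted, also with Cisplatin. The 5 epithelial markers KRT7, KRT8, KRT18, EPCAM and CDH1 were all detected and summed to 8443 to 15900 CPM in untreated cells and to 4613 to 6841 CPM with Cisplatin. Among them EPCAM stood at 5.59 to 18.2 CPM in untreated shControl cells and at 85.7 to 97.9 CPM in untreated shRNF113A cells. CDH1 went the other way, from 138 to 195 CPM in the former to 91.4 to 128 CPM in the latter. KRT8 was higher in untreated shRNF113A cells, and the ranges of KRT7 and KRT18 overlapped. The part of these markers in the results was not tested. The leukocyte markers PTPRC, CD3E and CD68 summed to 28.0 to 36.7 CPM in untreated shControl cells and to 56.8 to 72.9 CPM in shRNF113A cells with Cisplatin, almost all of it CD68, with PTPRC at 0 to 0.126 CPM everywhere. Endothelial and fibroblast markers summed to at most 0.429 and 3.15 CPM. The shares of library b of untreated shRNF113A cells lay a median of 2.06 points from the mean of the other 2 libraries of its group, against 1.37 to 1.79 points for the other 11 libraries.

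The precision of a share followed the reads behind it. In shControl cells with and without Cisplatin the median SD between libraries was 5.19 points for members with 20 to 49 reads in their poorest library, 3.21 points for 50 to 199 reads, 1.94 points for 200 to 999 reads and 1.03 points above that. Members just inside the limit, with 20 reads, numbered 30 to 44 in a comparison, and events just outside, with 19 reads, numbered 41 to 46. None of either passed the test.

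For each comparison the reads of both forms entered a quasi-likelihood test in edgeR, with p-values adjusted over all listed events of the table by the Benjamini-Hochberg method. Members with an adjusted p under 0.05 are said to have changed, and those whose mean shares also lay at least 20 points apart are said to be called.

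The first comparison asked which pairs shifted upon Cisplatin in shControl cells. A shift was found in 195 of 13091 members, 108 with a higher and 87 with a lower share of the first exon, in 125 genes. The background was 1.36% of the 14456 listed events. Of these, 11 members in 11 genes were called, 4 with a higher and 7 with a lower share, beside a background of 0.083%. The groups did not overlap in any of them, nor in 12.4% of all members. Of the 11, 5 were joined pairs (FANCI, TANGO2, DAG1, EPB41L4A and AC011530.4) and 4 were never-joined pairs. The other 2, SEPT2 and HMSD, had an unannotated exon. In a joined pair a changed share does not show a switch between the exons, since a transcript can carry both. DESeq2 called 3 of the 11, SEPT2, ATE1 and AC011530.4, and gave no adjusted p for 5. It was run with its filter on mean counts, which can leave an event without an adjusted p. Such events were neither passed nor failed by DESeq2. The calls numbered 6 without library c of untreated shControl cells, and the changed members 105 without library a and 123 without library c of that group. Changed members were few among joined pairs, 101 of 11485 (0.879%), and made up 32 of 316 never-joined pairs (10.1%) and 62 of 1290 events with an unannotated exon (4.81%). Median reads in all 6 libraries together were 2765, 1408.5 and 1789 in these classes, which were not tested against each other.

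The largest difference among called members was in SEPT2 (now named SEPTIN2), which encodes the filament-forming GTPase septin 2. Its first exon, chr2:242256914-242257014, is non-coding, and the second, chr2:242263824-242264077, lies 6809 nt downstream. The first exon took 89.8%, 92.6% and 83.3% of the forms in untreated shControl libraries a, b and c, a mean of 88.6% ± 4.77 (SD, n = 3), on 61 to 74 reads. With Cisplatin it took 53.6%, 45.7% and 54.4%, a mean of 51.2% ± 4.79, on 110 to 129 reads. All 3 treated libraries were thus far below every untreated library, with a log2 odds change of −2.88 (SE 0.33, adjusted p = 5.78e-08).

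ATE1 was the called pair of the classical kind. Its exons of 129 nt each encode alternative stretches of arginyltransferase, which adds arginine to proteins and thereby marks many of them for degradation. The first exon stood at 13.2%, 27.9% and 13.3% in untreated shControl libraries and at 39.4%, 56.7% and 40.3% with Cisplatin, on 203 to 463 reads. Library b was the highest of both groups, and the groups did not overlap. The share rose by 27.3 points, from 18.1% ± 8.48 to 45.4% ± 9.71 (log2 odds change 1.93, SE 0.24, adjusted p = 3.54e-07). With robust estimation of the dispersion the adjusted p was 0.377.

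FANCI, a protein of the Fanconi anaemia pathway that repairs crosslinks of the kind Cisplatin makes, had a called pair of non-coding exons. Its share was 23.2%, 38.9% and 22.4% in untreated shControl libraries and 57.4%, 65.8% and 41.0% with Cisplatin, on 54 to 90 reads. The treated group was the higher, but its lowest library lay only slightly above the highest untreated library. The change of 26.6 points had an adjusted p of 0.00890, which became 0.170 without untreated library a, 0.0843 without untreated library c and 0.201 without treated library b.

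SS18L1, a chromatin regulator of neurons also called CREST, moved the other way. The share of its non-coding first exon was 36.7%, 40.3% and 40.9% in untreated shControl libraries and 13.9%, 23.97% and 14.7% with Cisplatin. It fell by 21.8 points (log2 odds change −1.62, SE 0.32, adjusted p = 0.00188), and by 20.0 points without treated library a, just under the limit for a call. In TANGO2, a gene of Golgi organisation and metabolism, the share rose from 35.8% ± 3.48 to 62.4% ± 8.83 (adjusted p = 0.0204). Without untreated libraries a or c, or treated libraries a or c, the adjusted p of TANGO2 was 0.0713, 0.119, 0.151 and 0.0961.

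DAG1, which encodes dystroglycan, a receptor for laminin, had 60.3% ± 3.80 of its first exon in untreated shControl cells and 29.7% ± 8.13 with Cisplatin. Its adjusted p of 0.0499 was the closest to the threshold, and it was 0.0511 with robust dispersion and lay between 0.0663 and 0.281 without untreated library a, b or c or treated library b or c. HMSD, TXNRD1 and EPB41L4A, named after their values were seen, were also called, with differences of −21.7, −20.6 and −20.6 points. HMSD lay under 20 points without untreated library c or treated library b (differences of −18.4 and −19.7 points), and TXNRD1, which encodes thioredoxin reductase, missed the call in 5 of 6 such omissions and EPB41L4A in 4 of 6. The remaining 2 called members, AC011530.4 (65.2% ± 7.53 to 33.8% ± 3.30) and RP1-130H16.18 (45.7% ± 6.94 to 76.0% ± 14.3), are annotated genes that overlap others on the same strand. These are DMPK and DMWD for the former and CASTOR1 and TBC1D10A for the latter, so the reads cannot be assigned to a single gene. The HMSD and TXNRD1 events likewise overlap another gene on the same strand, SERPINB8 and EID3. The part of these genes in their reads was not tested. RP1-130H16.18 had an adjusted p of 0.0582 without treated library c.

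**Figure D2:**
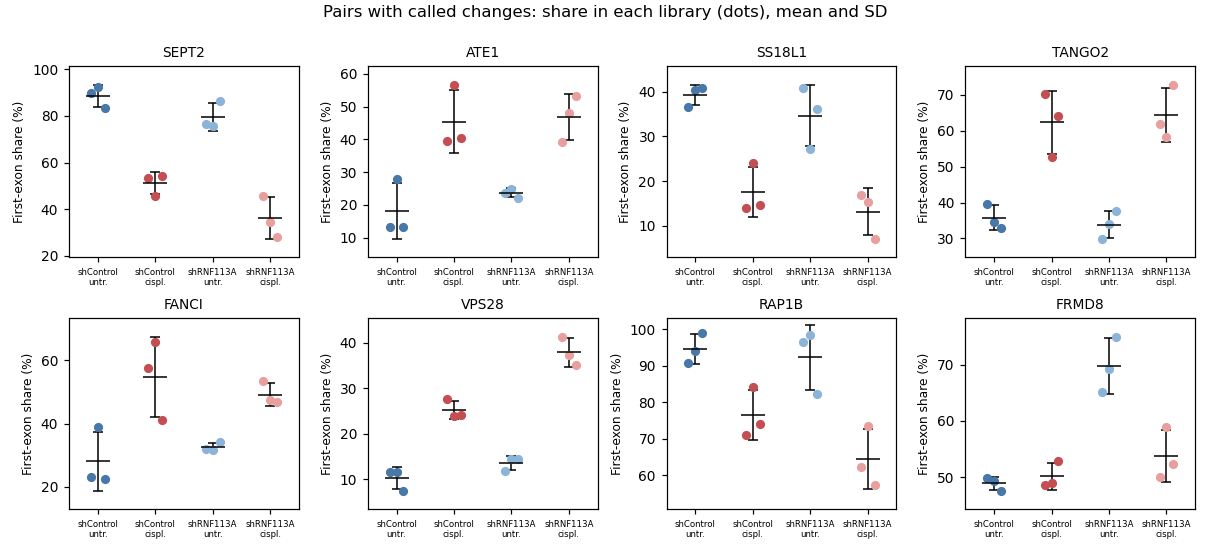
First-exon share in percent (vertical axis, scaled for each gene and not starting at 0) in the 4 groups (horizontal axis) for 8 genes with a called pair. Dots are libraries a, b and c from left to right, the long bar is the mean and the whiskers are 1 SD. TANGO2, FANCI and VPS28 are joined pairs, and SEPT2 has an unannotated exon. SEPT2, SS18L1 and RAP1B have lower shares and ATE1, TANGO2, FANCI and VPS28 higher shares in both Cisplatin groups, and FRMD8 stands apart in untreated shRNF113A cells.

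The same question in shRNF113A cells gave 353 changed members of 13535, 164 higher and 189 lower, in 233 genes, with a background of 2.41%. Called were 14 members in 12 genes, 7 in each direction, beside a background of 0.133%. None had overlapping groups, which was also so in 16.1% of all members. Of the 14, 5 were joined pairs (VPS28, LAMA3, C9orf3, MCPH1 and a TANGO2 event), 6 were never-joined pairs and 3 had an unannotated exon. DESeq2 called 4 of the 14, in SEPT2, VPS28, RAP1B and ATE1. Of the Cisplatin-treated cells, the omission of library c left 6 calls and that of library b gave 25, and the changed members numbered 196 and 197 when library a or c was left out. Never-joined pairs gave 40 of 302 changed members (13.2%) and joined pairs 206 of 11828 (1.74%).

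SEPT2 again had the largest difference, from 76.5%, 75.6% and 86.6% in untreated shRNF113A libraries to 45.8%, 34.7% and 28.2% with Cisplatin. The mean fell by 43.3 points, with no overlap (log2 odds change −2.78, SE 0.43, adjusted p = 8.83e-06). The ATE1 share rose by 23.2 points, from 23.7% ± 1.39 to 46.8% ± 7.14 (adjusted p = 6.69e-07), and by 19.9 points without treated library c. SS18L1 fell by 21.6 points to 13.1% ± 5.26 (adjusted p = 0.000193), with differences of −18.5 and −18.6 points without untreated library a or treated library c.

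VPS28, a subunit of the ESCRT-I complex that sorts membrane proteins for degradation, had the smallest adjusted p among the named pairs. Its first exon of 383 nt took 11.8%, 14.4% and 14.5% in untreated shRNF113A libraries and 41.3%, 37.3% and 35.0% with Cisplatin, on 222 to 622 reads. Every treated library was more than 20 points above every untreated library, and the mean rose from 13.6% ± 1.51 to 37.9% ± 3.202 (log2 odds change 1.96, SE 0.16, adjusted p = 1.12e-13). In shControl cells the shares were 10.2% ± 2.37 and 25.2% ± 2.03, but the event was not in the table of that comparison and was not tested there. The lower treated level of shControl cells was also seen in the test of shRNF113A against shControl cells with Cisplatin, where VPS28 was 12.7 points higher (adjusted p = 1.14e-06).

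RAP1B, a small GTPase of cell adhesion, had a called never-joined pair of non-coding exons that is listed with 2 sets of ends. In the pair with the larger difference the shares were 96.6%, 98.3% and 82.2% in untreated shRNF113A libraries and 62.3%, 73.5% and 57.5% with Cisplatin, on 56 to 88 reads. The groups did not overlap, although untreated library c stood between the others and the treated group (adjusted p = 0.000238). In shControl cells this pair changed from 94.6% ± 4.17 to 76.5% ± 6.79 (adjusted p = 0.00209), which is under 20 points.

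LAMA3, the alpha 3 chain of laminin 332, went from 67.8% ± 5.56 to 40.7% ± 8.57 (adjusted p = 0.00338), with values of 0.0610 and 0.0895 without treated library a or c. DLG1, a scaffold protein of cell polarity, went from 81.5% ± 8.09 to 58.0% ± 5.67 (adjusted p = 0.0213), and it lost its call in 4 of 6 omissions of a library, with adjusted p-values of 0.0800 to 0.133. C9orf3 (now named AOPEP), an aminopeptidase, rose from 57.5% ± 5.12 to 85.6% ± 12.6 (adjusted p = 0.0113, and 0.255 without treated library a, where the second exon had no read). TANGO2 rose from 33.8% ± 3.80 to 64.3% ± 7.56 (adjusted p = 0.00592), with 0.0551 without untreated library a and 0.0787 without treated library c. RP1-130H16.18 rose from 56.9% ± 6.10 to 87.5% ± 9.69. Named after their values were seen, SNHG1, a host gene of small nucleolar RNAs, fell by 22.7 points (19.3 without treated library c) and MCPH1, a regulator of chromosome condensation, rose by 20.1 points. MCPH1 stayed called in 2 of 6 omissions, and a second TANGO2 event, with another start of the first exon, in 1 of 6.

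Between untreated shRNF113A and shControl cells 80 of 13222 members differed at this threshold, 51 with a higher and 29 with a lower share in shRNF113A cells, in 52 genes, against a background of 0.551%. At an unadjusted p under 0.05 there were 849 members. The count was 51 without library b of untreated shControl cells and 39 and 42 without libraries a and c of untreated shRNF113A cells. A single member was called, in FRMD8, beside a background of 0.00689%.

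FRMD8 binds the iRhom proteins and keeps a sheddase of growth factors at the cell surface. Its pair of 144 and 102 nt, chr11:65156856-65156999 and chr11:65161044-65161145, is never joined, and both exons are coding. The share was 49.8%, 49.3% and 47.6% in untreated shControl libraries and 65.2%, 69.1% and 74.95% in untreated shRNF113A libraries, on 67 to 155 reads. All 3 shRNF113A libraries were above all controls, with means of 48.9% ± 1.15 and 69.8% ± 4.91 (log2 odds change 1.24, SE 0.28, adjusted p = 0.0260). The adjusted p lay between 0.0509 and 0.140 without any single library of the 6, and DESeq2 made no call here. With Cisplatin the shares were 50.1% ± 2.44 and 53.8% ± 4.59 (adjusted p = 0.717), and the difference of the differences was −17.2 points (adjusted p = 0.353).

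The RNF113A mRNA levels of shRNF113A and shControl cells with Cisplatin overlapped (adjusted p = 0.233 in edgeR's test). Between these groups 428 of 13188 members differed, 209 higher and 219 lower in shRNF113A cells, in 281 genes, against a background of 2.96%. The count was 236 without library a of shControl cells, and 224 and 205 without libraries a and c of shRNF113A cells. Called were 6 members in 5 genes, 2 higher and 4 lower, beside a background of 0.0414%. Their groups did not overlap, nor did those of 17.0% of all members, and DESeq2 gave no adjusted p for any of the 6. TYW5 and AFMID were joined pairs, and the other 4 events had an unannotated exon. Without library a of shControl cells, or library c of shRNF113A cells, 3 members were called, and without library b of shRNF113A cells 10 were. Never-joined pairs had 24 changed members of 313 (7.67%) and no call, and events with an unannotated exon 144 of 1434 (10.0%).

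TYW5 encodes a hydroxylase that modifies a base of transfer RNA. Its first exon of 70 nt had 0 of 47, 0 of 54 and 1 of 66 reads in shControl libraries a, b and c with Cisplatin, too few to tell a share of 0 from a low one, and it took 42.5%, 12.3% and 21.4% in shRNF113A libraries. The shRNF113A libraries were all higher but spread widely, with a mean of 25.4% ± 15.5 (adjusted p = 0.000242, and a difference of 16.1 points without shRNF113A library a). ZNF211, a zinc finger protein, went from 26.1% ± 2.62 to 56.8% ± 5.04 on 23 to 47 reads (adjusted p = 0.0149), with adjusted p-values of 0.0529 to 0.142 without libraries a or b of shControl or a or c of shRNF113A cells. MPHOSPH9, a phosphoprotein of centrioles, went from 94.6% ± 2.26 to 69.9% ± 15.1, with adjusted p-values of 0.0668 to 0.241 without libraries a or b of shControl or c of shRNF113A cells. A second MPHOSPH9 event, with other ends of the first exon, went from 95.7% ± 1.88 to 72.7% ± 7.86 (adjusted p = 0.00201, and 0.0754 without that library). AFMID, an enzyme of tryptophan breakdown, went from 36.1% ± 10.7 to 13.6% ± 8.70 (adjusted p = 0.0245) and lost its call in 4 of 6 omissions. AC011530.4 fell from 71.2% ± 11.4 to 43.7% ± 4.13 (adjusted p = 4.33e-07), in an event other than that of the first comparison, and its reads cannot be told from those of DMPK.

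Cisplatin effects in shControl and shRNF113A cells were set side by side over 6901 events that were members of both comparisons, which share no library. Both differences had the same sign in 3821 events (55.4%). Of 128 events that changed in shControl cells, 118 had the same sign in shRNF113A cells and 71 (55.5%) changed there as well. Of 207 events that changed in shRNF113A cells, 185 had the same sign in shControl cells and those 71 made up 34.3%. Of the 71, 70 had the same sign in both. The 71 events lie in 51 genes and made up 1.03% of the 6901. Events of a gene share exons and reads, so they are not separate observations. The differences between shRNF113A and shControl cells without and with Cisplatin, which share no library either, had the same sign in 3597 of 6509 shared members (55.3%). The 30 events that changed in both made up 57.7% of 52 and 14.4% of 208. Those 30 lie in 21 genes and made up 0.461% of the 6509.

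**Figure D3:**
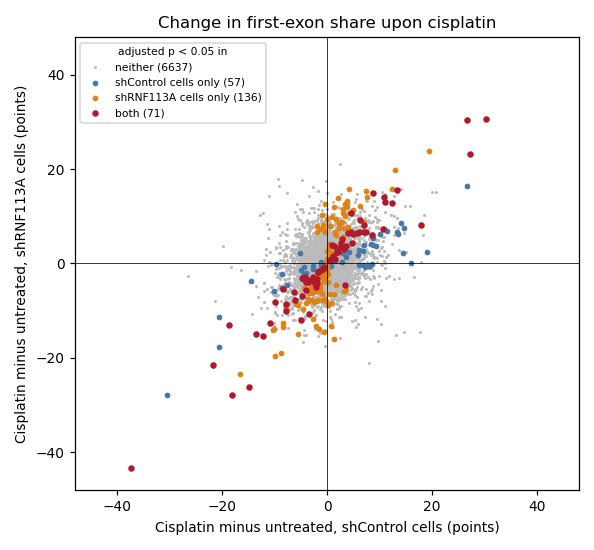
Change in mean first-exon share upon Cisplatin in percentage points in shControl cells (horizontal axis) and in shRNF113A cells (vertical axis) for 6901 members of both comparisons, with 71 events changed in both, 57 in shControl cells only and 136 in shRNF113A cells only at adjusted p under 0.05. Events that changed in both lie in the lower left and upper right, with SEPT2 at −37.3 and −43.3 points, except for 1.

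Whether the Cisplatin effect differed between the cells was tested for 7850 events listed in both tables, in a fit of all 12 libraries. At an adjusted p under 0.05 there were 6 events, a background of 0.0764%, and none differed by 20 points. At an unadjusted p under 0.05 there were 452. The 6 events lie in 5 genes, which are named after their values were seen. Apart from those of PTGES3, all had an unannotated exon. The count was 3, 16 and 1 without libraries a, b and c of shRNF113A cells with Cisplatin.

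GAS5, a host gene of small nucleolar RNAs whose transcript is not translated into a protein, had the largest difference of effects in points among the 6. Its first exon stood at 44.6%, 48.3% and 49.1% in untreated shControl libraries and at 63.9%, 64.8% and 61.1% with Cisplatin, on 1163 to 2956 reads. In shRNF113A libraries it stood at 55.5%, 55.3% and 53.4% untreated and at 56.6%, 54.2% and 54.0% with Cisplatin. The share thus rose by 15.95 points in shControl cells (adjusted p = 3.28e-10) and differed by 0.198 points in shRNF113A cells (adjusted p = 0.983), where the groups overlapped. The effects differed by −15.8 points (log2 odds difference −0.92, SE 0.12, adjusted p = 1.91e-05). Compared with shControl cells, the share of shRNF113A cells was 7.42 points higher when untreated (adjusted p = 0.0288) and differed by −8.34 points with Cisplatin (adjusted p = 2.29e-06).

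PTGES3, a co-chaperone of HSP90 also called p23, was listed with 2 ends of its second exon. In the never-joined event the share was 37.3% ± 1.69 and 40.8% ± 0.470 in shControl cells and 37.4% ± 2.57 and 31.7% ± 3.12 in shRNF113A cells, without and with Cisplatin. The effects differed by −9.16 points (adjusted p = 0.0134), and the values of the other event, which shares the first exon, differed by −7.95 points. FAM211A-AS1, now named SNHG29, fell from 72.95% ± 2.07 to 67.7% ± 1.54 in shControl cells and had 70.05% ± 2.49 and 72.2% ± 0.322 in shRNF113A cells (difference of effects 7.40 points, adjusted p = 0.0253). In POLR2G, a subunit of RNA polymerase II, both exons adjoin each other, and the share rose from 3.45% ± 0.256 to 7.08% ± 1.04 in shRNF113A cells (difference of effects 2.89 points, adjusted p = 0.00497). SENP3-EIF4A1, whose reads overlap those of the translation factor gene EIF4A1, stayed under 1% everywhere (difference of effects 0.396 points, adjusted p = 0.00479). Without shRNF113A library c with Cisplatin, the adjusted p was 0.106 and 0.0966 for the PTGES3 events, 0.0855 for POLR2G, 0.0516 for SENP3-EIF4A1 and 0.0966 for FAM211A-AS1. Both PTGES3 events also exceeded 0.05 without shRNF113A library a with Cisplatin (0.236) or untreated shControl library c (0.0827 and 0.0794), and FAM211A-AS1 did so without 5 other libraries. GAS5 kept an adjusted p under 0.05 without each of the 12 libraries.

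**Figure D4:**
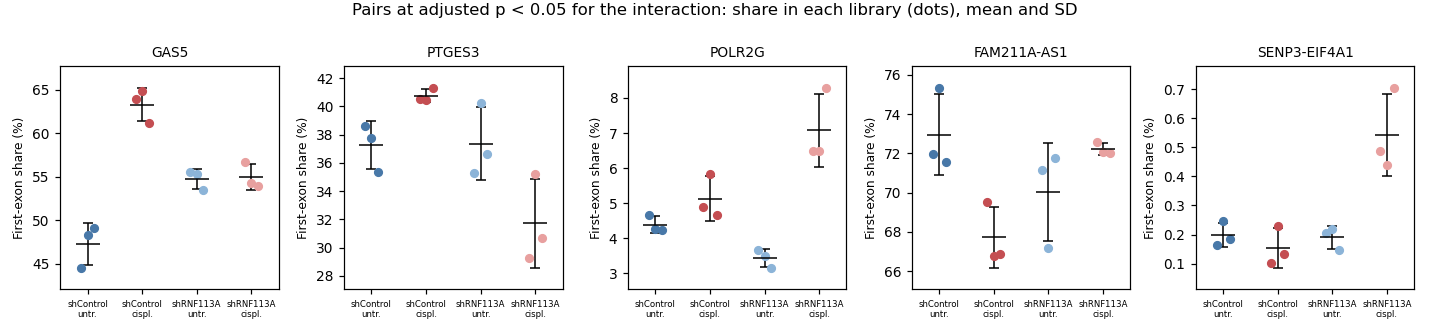
First-exon share in percent (vertical axis, scaled for each gene and not starting at 0) in the 4 groups (horizontal axis) for the 5 genes with an adjusted p under 0.05 for the difference of the Cisplatin effects. Dots are libraries a, b and c, bars are means and whiskers are 1 SD. GAS5 rises from 47.3% to 63.3% in shControl cells and stands at 54.7% and 54.9% in shRNF113A cells, and POLR2G and SENP3-EIF4A1 are highest in shRNF113A cells with Cisplatin.

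A list of 35 genes with well-known mutually exclusive exons was read from the same fits, with 1 event taken for each gene. A member was found in 30 of them, and in 24 it was a never-joined pair. The MYL6 event is among the 24, although its adjoining exons could not have counted as joined. The events taken for TPM4, ACTN1, KHK, ASPH and FGFR2 were joined pairs, and that of FGFR3 had an unannotated exon. In shControl cells Cisplatin changed 9 of 29 members, 5 higher and 4 lower, with a median difference of 3.25 points without regard to sign, against 1.42 points over all members, where 1.36% of all listed events changed. In shRNF113A cells it changed 9 of 26, 6 higher and 3 lower (median 2.14 against 1.79 points, background 2.41%). Between shRNF113A and shControl cells 2 of 28 members differed when untreated (background 0.551%) and 5 of 28 with Cisplatin (background 2.96%). None was called, because no change reached 20 points.

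Among the genes of the cytoskeleton and membrane traffic, tropomyosins stiffen and gate actin filaments, alpha-actinins crosslink them and dynamins cut vesicles from membranes. The 76-nt exons of TPM1, with 91.2%, 94.6% and 91.9% of the first in untreated shControl libraries, had 95.1%, 96.9% and 95.5% with Cisplatin (adjusted p = 1.54e-05, and 0.522 with robust dispersion). TPM1 rose likewise in shRNF113A cells, from 93.9% ± 0.440 to 96.9% ± 0.315 (adjusted p = 3.58e-06). TPM2 had 43.1% ± 6.41 and 44.5% ± 5.01 in shControl cells (adjusted p = 0.959) and rose from 38.9% ± 2.49 to 51.0% ± 1.86 in shRNF113A cells (adjusted p = 3.00e-08). The 2 TPM2 effects had an adjusted p of 0.209 for their difference, while with Cisplatin the shRNF113A cells were 6.44 points higher (adjusted p = 0.000209), although library b of shControl cells lay within their range. That last p was 0.461 with robust dispersion, 0.0838 without shControl library a and 0.0762 without shRNF113A library a.

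ACTN4 used its first exon almost exclusively, with 99.2% ± 0.266 in untreated and 98.6% ± 0.302 in Cisplatin-treated shControl cells. The share fell by 0.649 points (adjusted p = 0.000669, and 0.0535 without untreated library a). In shRNF113A cells it fell by 0.653 points (adjusted p = 2.86e-05), on 2048 to 6723 reads a library. Untreated shRNF113A cells were 0.382 points higher than shControl cells (adjusted p = 0.0375, and 0.0710 in a fit on members alone), and the p exceeded 0.05 in 4 of 6 omissions of a library, up to 0.405 without shControl library b. ACTN1 rose by 1.51 points upon Cisplatin in shControl cells (adjusted p = 6.44e-05, and 0.0804 with robust dispersion), in a pair that an annotated transcript joins. CALU, a calcium-binding protein of the secretory pathway, fell from 78.9% ± 1.39 to 74.3% ± 0.532 there (adjusted p = 0.00669, and 0.0843 without untreated library b).

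The dynamins changed in different comparisons. DNM1 fell upon Cisplatin from 97.3% ± 0.430 to 93.9% ± 1.25 in shControl cells (adjusted p = 0.0230) and from 95.0% ± 2.44 to 84.2% ± 4.41 in shRNF113A cells (adjusted p = 0.00768). Its groups did not overlap in either, but the adjusted p exceeded 0.05 in 4 and 3 of 6 omissions of a library, up to 0.234 and 0.230. With Cisplatin DNM1 was also lower in shRNF113A than in shControl cells, with a difference of −9.72 points and no overlap (adjusted p = 0.0263), and exceeded 0.05 in 4 of 6 omissions, up to 0.265. For DNM2 the first exon took 78.9%, 74.2% and 79.9% in untreated shControl libraries and 86.0%, 88.6% and 88.9% in untreated shRNF113A libraries, on 415 to 812 reads. All shRNF113A libraries were higher, and the difference of 10.2 points (log2 odds change 1.04, SE 0.16, adjusted p = 0.000102) held without each library. MYL6, TPM3 and TPM4 did not pass the test in any comparison that listed them. The TPM4 event is a joined pair, and the exons of the MYL6 event adjoin each other.

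Among the enzymes and transporters, PKM provides the best known pair, since the second exon makes the M2 isoform of proliferating cells. The first exon, which makes the M1 isoform of muscle and brain, took 1.48%, 2.32% and 1.34% in untreated shControl libraries and 2.04%, 2.35% and 2.52% with Cisplatin. On 18807 to 33342 reads a library, the share rose by 0.593 points in shControl cells (adjusted p = 0.00625), where untreated library b lay within the treated range. In shRNF113A cells it rose by 0.814 points, from 1.61% ± 0.0797 to 2.42% ± 0.264, without overlap (adjusted p = 6.13e-09). The former exceeded 0.05 without untreated library a or c or treated library b or c (adjusted p = 0.0609 to 0.246) and with robust dispersion (0.827). M2 thus remained by far the main form in every library.

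P4HA1, a subunit of the prolyl hydroxylase of collagen, rose from 29.3% ± 0.673 to 45.2% ± 2.36 upon Cisplatin in shRNF113A cells (adjusted p = 0.000797) and had 36.3% ± 5.81 and 48.6% ± 5.36 in shControl cells (adjusted p = 0.0758). SLC25A3, the phosphate carrier of mitochondria, used its first, muscle-type exon at 0.501% ± 0.0267 in shControl and 0.976% ± 0.1499 in shRNF113A cells with Cisplatin, on 4782 to 8335 reads (adjusted p = 3.69e-05). In KHK, P4HA2, SLC39A14 and ASPH no comparison passed the test, and the events of KHK and ASPH are joined pairs.

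Of the kinases, receptors and channels, only FGFR1 passed it. The first exon of the pair, usually called IIIb, and the second, IIIc, decide which growth factors the receptor binds. The first exon took 3.29%, 3.79% and 3.53% in untreated shControl libraries and 5.98%, 8.88% and 7.76% with Cisplatin, a rise of 4.00 points (log2 odds change 1.19, SE 0.16, adjusted p = 1.87e-06). In shRNF113A cells it rose from 3.47% ± 1.33 to 9.86% ± 2.42 (adjusted p = 7.94e-06). The pair had 2345 to 2608 reads a library in untreated and 619 to 879 in treated shControl cells. MAPK8, MAPK9 and MAPK14 did not pass, and FGFR2, FGFR3 and SNAP25 were members in only some comparisons. FYN, MAPK10, CACNA1C, CACNA1D and the nuclear MEF2C had no member.

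Of the nuclear proteins, TCF3 makes the transcription factors E12 and E47, which differ in their DNA-binding domain through such a pair. The share of its first exon was 63.6%, 63.1% and 62.5% in untreated shControl libraries and 74.5%, 73.3% and 73.6% with Cisplatin (adjusted p = 0.000204). Libraries of a group lay close together, and the share rose by 10.7 points with no overlap. In shRNF113A cells the share rose from 64.4% ± 1.89 to 71.7% ± 0.314 (adjusted p = 0.0314), which exceeded 0.05 in 4 of 6 omissions of a library (0.112 to 0.210). U2AF1 fell from 35.8% ± 1.30 to 28.3% ± 2.31 upon Cisplatin in shRNF113A cells (adjusted p = 0.000978) and had 31.3% ± 0.986 and 27.7% ± 2.36 in shControl cells (adjusted p = 0.164). An annotation carried over to this build lists another gene at the same place and strand, and its part in these reads was not tested.

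H2AFY (now named MACROH2A1) encodes the histone variant macroH2A1, whose pair of exons decides whether it binds a metabolite of NAD. It fell from 84.7% ± 0.832 to 80.2% ± 3.09 upon Cisplatin in shControl cells (adjusted p = 0.00199, but 0.132 without treated library b and 0.0524 with robust dispersion). With Cisplatin it was 3.25 points higher in shRNF113A cells (adjusted p = 0.0202), where the groups overlapped and the p was 0.129 with robust dispersion, 0.487 without shControl library b and 0.192 and 0.216 without shRNF113A libraries a and b. MEF2A and MEF2D did not pass the test in any comparison.

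**Figure D5:**
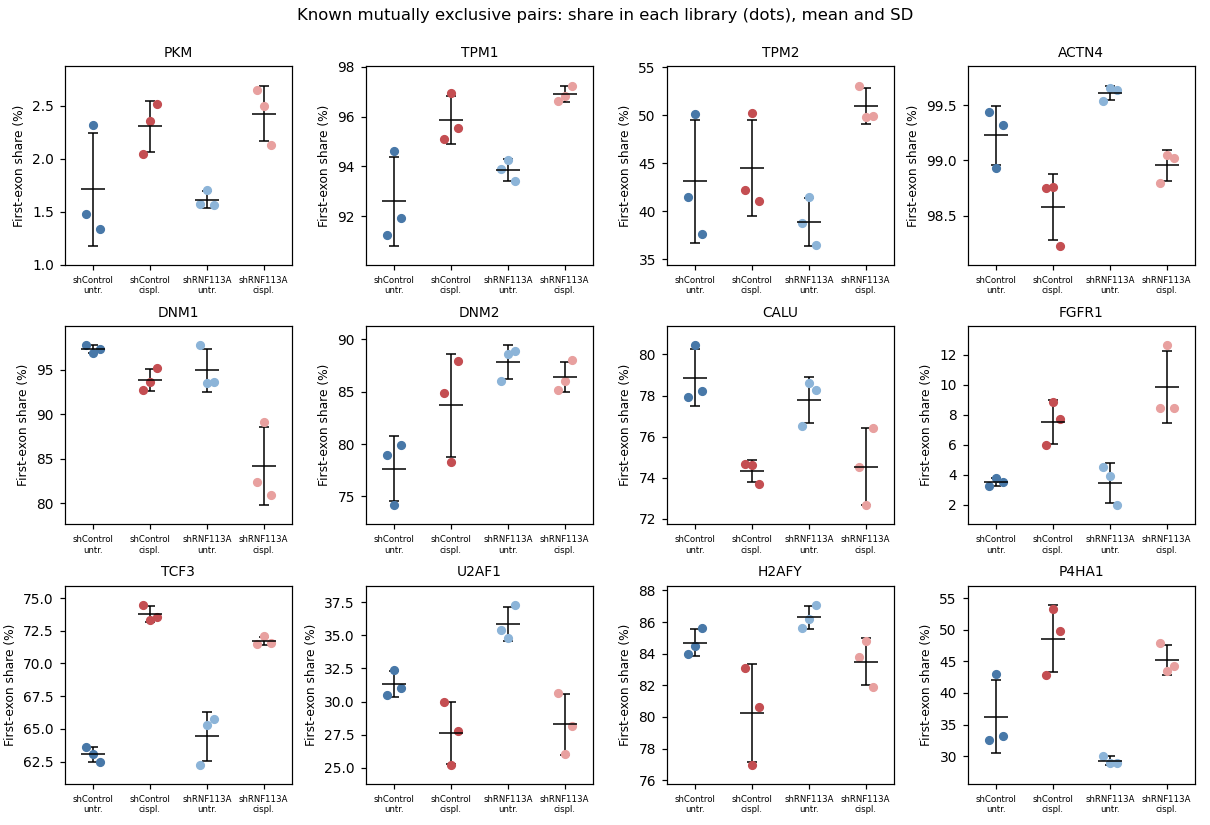
First-exon share in percent (vertical axis, scaled for each gene and not starting at 0) in the 4 groups (horizontal axis) for 12 genes with well-known mutually exclusive exons. Dots are libraries a, b and c, bars are means and whiskers are 1 SD. TPM1, TCF3 and FGFR1 are higher and ACTN4 and DNM1 lower with Cisplatin in both kinds of cells, DNM2 is higher in untreated shRNF113A than in untreated shControl cells, and PKM stays under 3% in every library.

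The expression of the genes named by the size of a called difference was read from the gene counts. Of 22 combinations of a gene and the comparison that named it, 18 had a fit, and 11 had an adjusted p under 0.05 at the gene level, 3 higher and 8 lower, where 55.0%, 60.2%, 27.4% and 42.9% of 15352 genes passed in the 4 comparisons, in the order above. ATE1 fell by 1.09 in log2 terms in shControl cells (SE 0.12, adjusted p = 1.33e-05) and by 1.14 in shRNF113A cells (SE 0.13, adjusted p = 8.37e-06). SS18L1 had log2 fold changes of 0.06 in shControl cells (adjusted p = 0.617) and 0.28 in shRNF113A cells (adjusted p = 0.0240), and RAP1B had −0.01 in the latter (adjusted p = 0.923). FRMD8 was higher by 1.00 in untreated shRNF113A than in untreated shControl cells (SE 0.09, adjusted p = 9.60e-06).

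Cassette exons gave a measure of how common calls are in another category, tested in the same way. With at least 20 reads in every library, 35 of 54944 cassette exons were called for Cisplatin in shControl cells, 139 of 55799 in shRNF113A cells, 7 of 55585 for shRNF113A against shControl in untreated cells and 32 of 55338 with Cisplatin. Over all listed cassette exons the shares called were 0.0541%, 0.224%, 0.0102% and 0.0463%. The 2 categories share exons and reads, so they were not tested against each other.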

How the data were processed

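RNA of 12 A549 libraries was sequenced by the authors with a stranded mRNA protocol on pairs of reads. Reads were trimmed to 73 nt and aligned to GRCh37 (hg19) with STAR 2.5.2b, and bcl2fastq 2.17 made the read files, per the submitters' notes and methods. The authors ran rMATS for each of 4 pairs of groups and deposited, for each event and library, the counts of reads on the inclusion and skipping forms, over the alternative exon and its junctions, with form lengths. The deposited tables also hold inclusion levels, their differences, p-values and FDR of the authors' comparisons, which were not used. A second set of deposited count files holds read pairs per gene on each strand, not normalized.

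Here the inclusion form of a mutually exclusive event is the exon first in transcription, on both strands. Its share was recomputed from reads divided by form length. Reads of both forms were tested with edgeR 4.0.16 (R 4.3.3), in a quasi-likelihood fit with a term for each library, a common offset and the interaction of form and group, over all listed events, with Benjamini-Hochberg adjustment and both sides tested. Gene counts were fitted with a term for group, TMM scaling and filterByExpr. On simulated counts with 100 events changed by 1 log2 odds unit, the fits of the 4 comparisons recovered 85, 89, 85 and 87, and 99 or 100 of 100 changed by 2 units. Among unchanged events 11, 4, 13 and 8 passed. The simulation gave all events the same dispersion, not estimated from these data, and changed only members with intermediate shares. It therefore does not measure recovery at the spread of these libraries. DESeq2 1.42.0, other offsets, dispersions, read minimums and the omission of each library were tried as alternatives. Tables were handled in Python 3.11.15 with pandas 2.3.3, and figures drawn with matplotlib 3.10.9.

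The members, the gene lists and the tests were chosen with earlier results of these data known. Named genes were the 8 with the largest difference among called members without overlap in a comparison, 1 event a gene, and the genes of a list of 35 with known pairs, 1 event each, never-joined where possible and with the most reads, of which 1 gene is not reported here. Same-numbered gene libraries of shControl cells without and with Cisplatin correlated at 0.64, 0.73 and 0.48 in their deviations over 9778 genes, and those of shRNF113A cells at 0.41, −0.073 and 0.29.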

Additional observations from a re-analysis of the deposited data

Results flagged for a closer look

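In 6 events the effect of Cisplatin differed between shRNF113A and shControl cells by the test of that difference, edgeR's quasi-likelihood test over 12 libraries, with an adjusted p under 0.05. The difference of effects, shRNF113A minus shControl, was −15.8 points in GAS5 (adjusted p = 1.91e-05), −9.16 and −7.95 points in the overlapping events of PTGES3 (adjusted p = 0.0134 for both) and 7.40 points in FAM211A-AS1 (adjusted p = 0.0253). It was 2.89 points in POLR2G (adjusted p = 0.00497) and 0.396 points in SENP3-EIF4A1 (adjusted p = 0.00479). GAS5 kept an adjusted p under 0.05 in all 17 alternatives run.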

How the results depend on the processing

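Called members were 11, 14, 1 and 6 for Cisplatin in shControl cells, Cisplatin in shRNF113A cells, shRNF113A against shControl in untreated cells and the same with Cisplatin. In that order, DESeq2 called 3, 4, 0 and 0. It gave no adjusted p for 5 of the 11 and all 6 of the last, so it did not decide on these. A difference of 10 points in place of 20 gave 46, 90, 19 and 55. At least 50 reads in place of 20 left 6, 8 and 1 in the first, second and last. Leaving out a library gave 6 to 11, 6 to 25, 0 to 1 and 3 to 10. In untreated cells the 1 call came only without library b of untreated shRNF113A cells, and it was not the FRMD8 event. Changed members numbered 195, 353, 80 and 428, under DESeq2 51, 105, 20 and 172, and without a library 105 to 213, 196 to 376, 39 to 59 and 205 to 478. A fit on members alone gave 53 for shRNF113A in untreated cells. Of the 6 events whose Cisplatin effects differed, DESeq2 gave 1, and leaving out a library 1 to 16. No result reversed its direction, and the causes of the lower counts were not tested.

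No paired analysis was possible because the splicing tables list the libraries of a group without names, so the replicate numbers, which go together in the gene counts of shControl cells, could not be carried over to them. With the replicate block in the gene counts, 11 of the 22 gene-level results passed, as without it, and RNF113A differed by −0.31 in untreated cells and −0.14 with Cisplatin, also as without it. Leaving out a library gave −0.35 to −0.28 and −0.24 to −0.13. Of the alternatives for single named events, 565 kept their side of the threshold and 151 did not, 33 of them under DESeq2. Called members lay mostly among events with under 200 reads in their poorest library, where the median SD between libraries was 3.21 to 5.65 points and small differences could not be detected.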

Other observations

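In 18 members the exons adjoined each other with no base between them, 11 of them among the never-joined pairs and 7 with an unannotated exon. MYL6, a light chain of myosin, was the deepest of those named, with 15586 to 22539 reads in a library. Its first part took 47.7% ± 0.386, 46.6% ± 0.523, 46.6% ± 0.654 and 47.6% ± 0.880 (SD, n = 3) in untreated and Cisplatin-treated shControl cells and untreated and Cisplatin-treated shRNF113A cells, and no comparison passed the test.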
